A study of Mus musculus with 8 samples.

Results

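The comparison set the libraries of mouse lung fibroblasts labelled 100 ng/ml TWEAK against those labelled 30 ng/ml, and asked where the transcriptome differed between these doses after 48 h. It used 4 of the 8 libraries of the series, 2 at each dose, and the 52110 rows of the gene count table that carry a gene symbol, out of 55335 rows. Of these, 17360 had enough counts to be tested. The cells were primary mouse lung fibroblasts of wild-type genotype (WT in the labels), grown in DMEM with serum, and all groups shared this culture. The groups were untreated cells and cells given recombinant TWEAK at 10, 30 or 100 ng/ml, each sampled at 48 h and each with 2 libraries. Strain, age and sex of the donor mice, the passage of the cells and the form of the recombinant protein are not stated by the labels. The labels call the libraries of a group repeats without naming separate cultures or mice. The spread behind the p-values and standard errors was estimated over all 8 libraries, so the untreated and 10 ng/ml libraries enter it. The 2 libraries of each group may be technical repeats. Doses are given as labelled.

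TWEAK (Tnfsf12) is a cytokine of the tumor necrosis factor superfamily, and its receptor is Fn14 (Tnfrsf12a), a small membrane protein found on fibroblasts and epithelial cells. Bound Fn14 recruits TRAF adaptors and the cIAP ligases, and signals through both arms of NF-kB: a fast one that releases RelA from its inhibitor IkB-alpha, and a slow one in which the kinase NIK drives the processing of p100 into p52, the partner of RelB. In fibroblasts of lung and other organs the pathway is known for inducing chemokines, adhesion molecules and proteases, and for acting on proliferation and on matrix genes.

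Library totals were 37345575 to 50896445 counts over the 8 libraries, and 39417523 to 45182724 over the 4 compared. The libraries were those of fibroblasts by their markers: Col1a2 was at 3193 and 3403 CPM (counts scaled to library size with TMM) at 30 ng/ml and 4199.8 and 4505 CPM at 100 ng/ml, and all 13 fibroblast markers were detected and tested. The lymphocyte and red cell marker lists had no member past the count filter, and Epcam, Nkx2-1, Sftpa1, Tie1, Emcn, Cd3e and C1qa had 0 counts in every library. Other markers did pass the filter: 11 of 18 for macrophages, 7 of 12 endothelial, 3 of 14 epithelial, 9 of 11 mesothelial and 9 of 11 mural. The distance between groups did not follow the labelled doses. Over the 11157 genes of at least 5 CPM, the root-mean-square log2 difference from the untreated mean was 0.338 for the libraries labelled 100 ng/ml, 0.7 for 30 ng/ml and 0.804 for 10 ng/ml. The groups compared here differed by 0.511 and the groups at 10 and 30 ng/ml by 0.247, each between means of 2 libraries. The 2 libraries of a group differed by 0.348 to 0.397. That is a distance between single libraries, which vary more than means, so it is not on the scale of the group distances. The libraries labelled 100 ng/ml lay nearer to the untreated ones than did those labelled 30 ng/ml, and no measured value gives the dose apart from the labels.

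At an adjusted p under 0.05, edgeR's quasi-likelihood test called 2637 of 17360 genes (15.2%) between the doses. Of these, 1242 (7.15% of genes tested) were higher and 1395 (8.04%) were lower at 100 ng/ml. The counts of list members given below are to be read against these shares. Lists and members were chosen with earlier results of these data known, so an excess over the shares is description and not a test. The fold change was at least 2 for 361 of the higher and 441 of the lower genes, and at least 4 for 73 and 159. The median log2 change of all tested genes was -0.00785. For 6077 genes (35%) the 95% interval of the log2 change lay within ±0.5. The counts were smaller when 1 library is left out: 1380 genes were called without 30 ng/ml replicate 1, 1567 without 100 ng/ml replicate 1 and 1631 without 100 ng/ml replicate 2. Log2 changes are given throughout as 100 over 30 ng/ml with their standard error, from 2 libraries a group. The standard errors use the spread shared by all 8 libraries. Adjusted p-values are Benjamini-Hochberg values over all genes tested. In these bulk samples, fewer cells of a kind and less RNA per cell cannot be told apart.

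**Figure D1:**
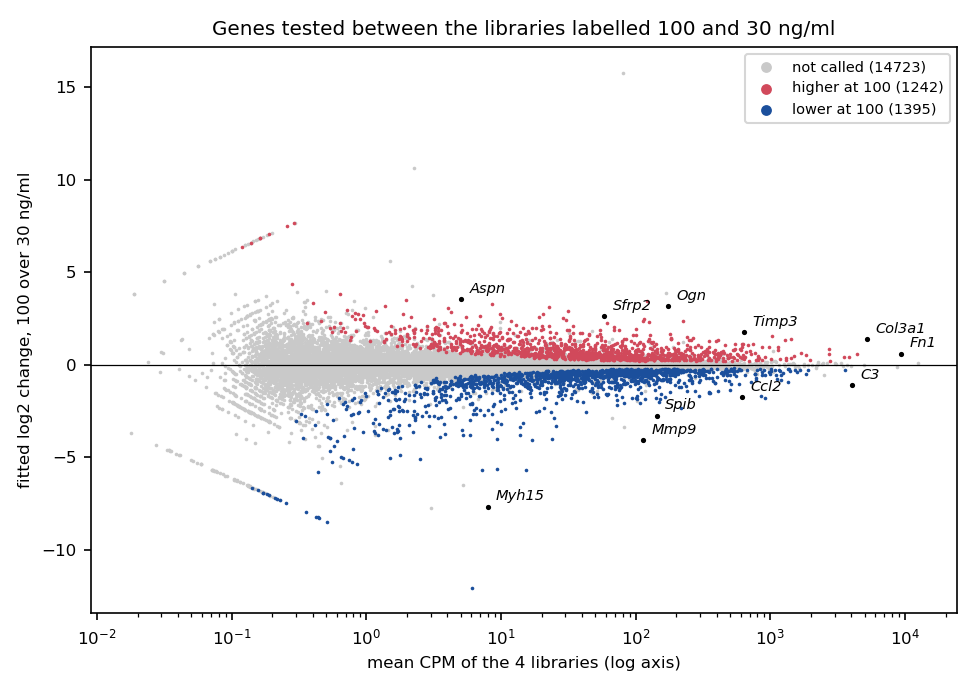
Each point is 1 of the 17360 tested genes; the horizontal axis is its mean level over the 4 libraries (CPM, log axis) and the vertical axis the fitted log2 change, 100 over 30 ng/ml. Red points were called higher (1242 genes), blue points lower (1395 genes) and grey points were not called; genes on the slanted lines at the left have 0 or few counts in 1 group, and Mmp9, Spib and Ccl2 stand below the line where Ogn, Timp3 and Col3a1 stand above it.

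The 15 leading genes on the lower side included a matrix protease, chemokines, an addressin and cytokine receptor chains. Mmp9, the gelatinase that cleaves denatured collagen and basement membrane, was at 246 and 182 CPM in the libraries at 30 ng/ml and 13.2 and 11.8 CPM at 100 ng/ml, against 0.180 and 0.140 CPM untreated. Its log2 change was -4.09 ± 0.16 (edgeR adjusted p = 7.17e-05). The CPM of the groups did not overlap for 57.3% of all genes tested, and so non-overlap alone is common. For Mmp9, every library at 100 ng/ml was far below every library at 30 ng/ml and far above both untreated ones. Ccl5, a chemokine for T cells and monocytes, was at 40.6 and 23.9 CPM at 30 ng/ml and 1.99 and 1.88 CPM at 100 ng/ml (log2 -4.06 ± 0.26, edgeR adjusted p = 0.00014). Madcam1, an addressin of lymphoid stroma and mucosal vessels bound by lymphocyte integrins, was at 52.1 and 38.4 CPM at 30 ng/ml and 2.89 and 2.68 CPM at 100 ng/ml (log2 -4.02 ± 0.31, edgeR adjusted p = 0.000254). Il2rg, the common gamma chain of the receptors of IL-2 and related cytokines, was at 30.97 and 20.8 CPM at 30 ng/ml and 1.73 and 2.002 CPM at 100 ng/ml (log2 -3.79 ± 0.23, edgeR adjusted p = 0.000124), and its exons overlap a predicted gene. The groups did not overlap for any of these. Csf2rb, the common beta chain of the receptors of GM-CSF, IL-3 and IL-5, was at 21.5 and 13.4 CPM at 30 ng/ml and 0.905 and 1.25 CPM at 100 ng/ml (log2 -4.01 ± 0.37, edgeR adjusted p = 0.000466). Tlr1, a receptor of bacterial lipopeptides, was at 11.1 and 8.22 CPM at 30 ng/ml and 0.427 and 0.951 CPM at 100 ng/ml (log2 -3.81 ± 0.34, edgeR adjusted p = 0.000412), and its log2 change was -4.49 without 100 ng/ml replicate 2.

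The 4 largest changes among the 15 leading lower genes, which hold a mean of at least 5 CPM over both doses, were in genes that were almost silent at 100 ng/ml. Myh15, a myosin heavy chain, was at 17.8 and 13.9 CPM at 30 ng/ml and 0.0754 and 0.0751 CPM at 100 ng/ml, and had 0 counts in both untreated libraries. It held 1395 counts at 30 ng/ml and 6 at 100 ng/ml, a depth-scaled ratio of 211 with a 95% counting interval of 96.8 to 577 (log2 change -7.66 ± 0.39, edgeR adjusted p = 0.00014). Bst1, an ADP-ribosyl cyclase of stromal cells, was at 42.7 and 16.96 CPM at 30 ng/ml and 0.251 and 0.901 CPM at 100 ng/ml (log2 -5.69 ± 0.67, edgeR adjusted p = 0.00128). Il4i1, a secreted amino acid oxidase, was at 18.99 and 9.42 CPM at 30 ng/ml and 0.528 and 0.0250 CPM at 100 ng/ml, 1261 against 22 counts and a ratio of 52.1 (counting interval 34.3 to 83.4; edgeR adjusted p = 0.00167). Colq, the collagen tail of acetylcholinesterase, held 1636 against 29 counts, a ratio of 51.3 (counting interval 35.6 to 76.8; edgeR adjusted p = 0.00316). The size of the last 3 changes depended on single libraries: leaving out 1 library at 30 or 100 ng/ml moved the log2 change of Bst1 between -6.88 and -4.87, that of Colq between -7.17 and -4.90 and that of Il4i1 between -8.99 and -4.74, and the 3 genes stayed called. Exons of Bst1, Il4i1 and Colq overlap those of a neighbouring gene, so their counts are uncertain by that overlap.

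Other leading genes on the lower side were Upp1, Cdhr1, Flrt3, Ccl9 and C4a. Upp1, uridine phosphorylase of pyrimidine salvage, was at 12.1 and 9.92 CPM at 30 ng/ml and 0.628 and 0.926 CPM at 100 ng/ml (log2 -3.82 ± 0.65, edgeR adjusted p = 0.0066); the call was lost without 100 ng/ml replicate 1 (edgeR adjusted p = 0.0562). Flrt3, a membrane protein of cell adhesion and axon guidance, was at 54.7 and 38.8 CPM at 30 ng/ml and 5.61 and 3.83 CPM at 100 ng/ml (log2 -3.31 ± 0.22, edgeR adjusted p = 0.000162). Cdhr1, a cadherin of photoreceptors, was at 30.7 and 19.9 CPM at 30 ng/ml and 2.06 and 2.88 CPM at 100 ng/ml (log2 -3.35 ± 0.32, edgeR adjusted p = 0.000499), and Ccl9 is described with the chemokines. C4a was the exception among the 15 leading genes on this side, because its untreated libraries were as high as those at 30 ng/ml. It was at 9.91 and 8.79 CPM untreated, 7.48 and 0.585 CPM at 10 ng/ml and 8.30 and 10.6 CPM at 30 ng/ml and 0.754 and 0.876 CPM at 100 ng/ml (log2 -3.53 ± 0.93, edgeR adjusted p = 0.0393). Its near-identical copy C4b can share reads with it, and the 2 libraries at 10 ng/ml stood far apart. The C4a call was lost when either untreated library, either 30 ng/ml library or either 100 ng/ml library was left out (edgeR adjusted p between 0.0627 and 0.185).

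The 15 leading genes on the higher side included small matrix proteoglycans, secreted antagonists and imprinted growth regulators. Ogn, osteoglycin, was at 575 and 592 CPM untreated, 27.6 and 42.01 CPM at 30 ng/ml and 291 and 329.6 CPM at 100 ng/ml. Its log2 change was 3.16 ± 0.21 (edgeR adjusted p = 0.000153), and the level at 100 ng/ml remained under both untreated libraries. Aspn, asporin, had the largest change among these 15: it was at 0.749 and 0.827 CPM at 30 ng/ml and 9.23 and 9.46 CPM at 100 ng/ml (log2 3.56 ± 0.19, edgeR adjusted p = 9.51e-05), with 18.7 and 18.1 CPM untreated, and its exons overlap those of Cenpp. Both are small leucine-rich proteoglycans that bind collagen fibrils, and the groups did not overlap for either. Plagl1, an imprinted zinc-finger gene that restrains growth, was at 1.78 and 1.39 CPM at 30 ng/ml and 17.1 and 14.2 CPM at 100 ng/ml (log2 3.30 ± 0.18, edgeR adjusted p = 9.51e-05), and overlaps a predicted gene. Sfrp2, a secreted Wnt antagonist, was at 13.5 and 18.99 CPM at 30 ng/ml and 92.01 and 109 CPM at 100 ng/ml (log2 2.63 ± 0.16, edgeR adjusted p = 0.000139), and overlaps a predicted gene. Lrp4, a receptor of agrin and sclerostin that modulates Wnt signalling, was at 5.53 and 9.28 CPM at 30 ng/ml and 54.4 and 56.9 CPM at 100 ng/ml (log2 2.91 ± 0.22, edgeR adjusted p = 0.000247). At 100 ng/ml each of these lay between its levels at 30 ng/ml and in untreated cells. Gdf10, a growth factor of the TGF-beta superfamily, was at 8.13 and 9.21 CPM at 30 ng/ml and 44.8 and 53.3 CPM at 100 ng/ml (log2 2.50 ± 0.16, edgeR adjusted p = 0.000145).

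Gucy1a3, the alpha subunit of soluble guanylate cyclase, was at 4.16 and 6.33 CPM at 30 ng/ml and 35.9 and 35.1 CPM at 100 ng/ml (log2 2.76 ± 0.19, edgeR adjusted p = 0.000177). Selenbp1, a selenium-binding protein, was at 30.3 and 39.3 CPM at 30 ng/ml and 187 and 203 CPM at 100 ng/ml (log2 2.49 ± 0.13, edgeR adjusted p = 9.51e-05). Clec3b, tetranectin, was at 3.33 and 7.53 CPM at 30 ng/ml and 29.9 and 35.9 CPM at 100 ng/ml (log2 2.60 ± 0.32, edgeR adjusted p = 0.00149). St8sia2, a polysialic acid transferase, was at 2.60 and 6.92 CPM at 30 ng/ml and 41.98 and 39.2 CPM at 100 ng/ml (log2 3.10 ± 0.36, edgeR adjusted p = 0.00117). The 2 libraries at 30 ng/ml were wide apart for the last of these, and for Clec3b and Ces1g as well: without 30 ng/ml replicate 2 the log2 changes were 3.96 for St8sia2, 3.30 for Clec3b and 3.49 for Ces1g. Ces1g, a carboxylesterase, Olfml1, Prss35 and Syn2 completed the list, with log2 changes of 2.77, 2.54, 2.58 and 2.65; Syn2 overlaps Timp4. Peg3, an imprinted zinc-finger gene, was at 17.2 and 23.05 CPM at 30 ng/ml and 226 and 218 CPM at 100 ng/ml (log2 3.47 ± 0.63, edgeR adjusted p = 0.00884). Its untreated libraries were at 50.01 and 247 CPM, the first far below and the second above both libraries at 100 ng/ml. The call of Peg3 was lost when 30 ng/ml replicate 1 was left out (edgeR adjusted p = 0.0735).

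**Figure D2:**
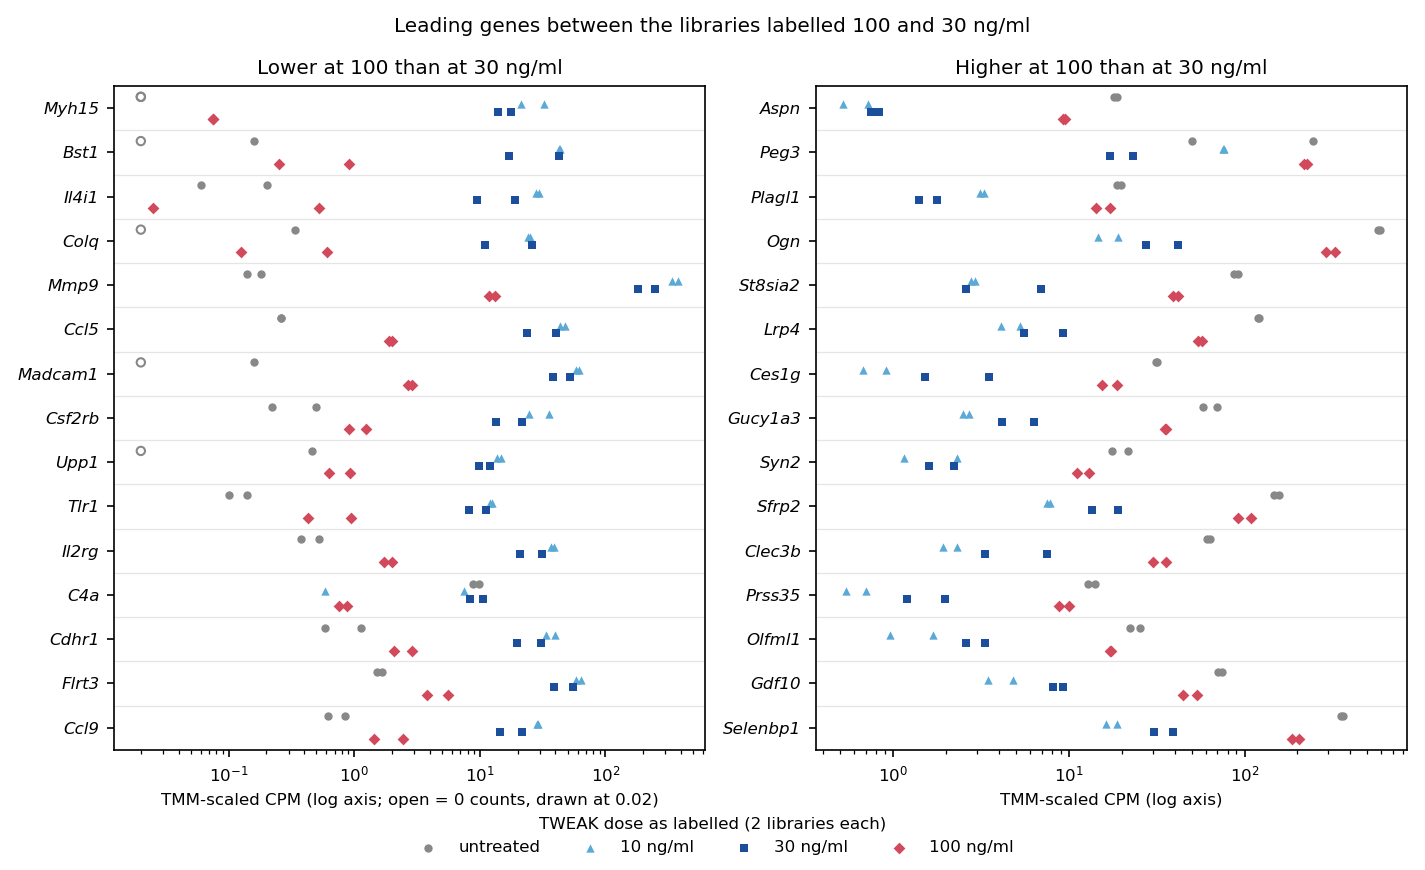
Level of the 15 leading genes in each direction in all 8 libraries (TMM-scaled CPM, log axis; 2 points per group, open circles for 0 counts). On the left the red diamonds (100 ng/ml) lie below the dark blue squares (30 ng/ml), as for Mmp9, and on the right above them, as for Ogn; the untreated libraries lie on the far side of both red diamonds except for C4a, Peg3, Il4i1 and Colq.

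The ligand and the receptor themselves differed by less than the leading genes. Tnfsf12 was at 23.7 and 27.1 CPM at 30 ng/ml and 35.9 and 31.3 CPM at 100 ng/ml (log2 0.41 ± 0.11, edgeR adjusted p = 0.0419). Tnfrsf12a, which encodes Fn14, was at 29.03 and 40.1 CPM at 30 ng/ml and 21.6 and 22.8 CPM at 100 ng/ml (log2 -0.64 ± 0.15, edgeR adjusted p = 0.0229). Untreated cells held 33.4 and 33.6 CPM of Tnfsf12 and 18.6 and 19.7 CPM of Tnfrsf12a. The groups at 30 and 100 ng/ml did not overlap for either gene. Both calls were fragile: that of Tnfsf12 was lost whichever 1 of the 8 libraries was left out (edgeR adjusted p between 0.0512 and 0.23), and that of Tnfrsf12a was lost when 30 ng/ml replicate 2 or either 100 ng/ml library was left out (edgeR adjusted p between 0.0735 and 0.123). Exons of Tnfsf12 overlap those of a neighbouring gene. Of 25 tested members of the TNF superfamily and its receptors, 11 were lower and 4 higher at 100 ng/ml (8.04% and 7.15% of all genes tested), with a median log2 change of -0.638. The higher count was 0 without 30 ng/ml replicate 1, 100 ng/ml replicate 1 or 100 ng/ml replicate 2, and the lower count was 7 without 100 ng/ml replicate 1. Tnfrsf9 (4-1BB), a costimulatory receptor, was at 18.1 and 17.6 CPM at 30 ng/ml and 5.25 and 7.56 CPM at 100 ng/ml (log2 -1.48 ± 0.18, edgeR adjusted p = 0.00148). Tnfrsf10b, the death receptor for TRAIL, was at 101 and 93.5 CPM at 30 ng/ml and 43.3 and 44.9 CPM at 100 ng/ml (log2 -1.14 ± 0.08, edgeR adjusted p = 0.00022). The 2 groups did not overlap for either gene. Ngfr, the low-affinity neurotrophin receptor, held 276 counts at 30 ng/ml and 20 at 100 ng/ml, a ratio of 12.5 (counting interval 7.96 to 20.9; edgeR adjusted p = 0.00245). Tnfrsf1b, the second TNF receptor, was lower by less (log2 -0.43 ± 0.06, edgeR adjusted p = 0.00296). On the higher side stood Tnfrsf1a, the first TNF receptor, at 261 and 279 CPM at 30 ng/ml and 317 and 335 CPM at 100 ng/ml (log2 0.27 ± 0.07, edgeR adjusted p = 0.0325). Ltbr, the lymphotoxin-beta receptor, was higher by a like amount (log2 0.28 ± 0.07, edgeR adjusted p = 0.0297). Tnfsf15 (TL1A) was at 2.27 and 3.12 CPM at 30 ng/ml and 4.63 and 5.18 CPM at 100 ng/ml (log2 0.87 ± 0.22, edgeR adjusted p = 0.0354). With Tnfsf12 these make up the 4 higher members. The Tnfrsf1a call was lost when either untreated library, either 30 ng/ml library or either 100 ng/ml library was left out (edgeR adjusted p between 0.051 and 0.183). The Ltbr call was lost when either 30 ng/ml library or either 100 ng/ml library was left out (edgeR adjusted p between 0.0734 and 0.152). The Tnfsf15 call was lost when 30 ng/ml replicate 1 or either 100 ng/ml library was left out (edgeR adjusted p between 0.0897 and 0.188).

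Genes of the NF-kB machinery stood lower at 100 ng/ml: 19 of 30 tested members were called lower and 0 higher, with a median log2 change of -0.456. The share called lower in all tested genes was 8.04%. Against untreated cells, 20 of the 30 were called higher at 30 ng/ml (12.6% of all genes tested) and 5 at 100 ng/ml (0.812%), 2 comparisons that share the untreated libraries. The summed level of the list was 2455 to 2735 CPM at 30 ng/ml, 1585 to 1616 CPM at 100 ng/ml and 1398 to 1416 CPM untreated. Nfkb2, the precursor p100 of the slow arm, was at 367 and 337 CPM at 30 ng/ml and 128 and 135 CPM at 100 ng/ml (log2 -1.42 ± 0.07, edgeR adjusted p = 8.28e-05) and 61.5 and 59.3 CPM untreated. Its partner Relb was at 58.1 and 52.3 CPM at 30 ng/ml and 25.2 and 29.5 CPM at 100 ng/ml (log2 -1.01 ± 0.12, edgeR adjusted p = 0.00126). Nfkbia, which encodes the inhibitor IkB-alpha and is itself an NF-kB target, was at 173 and 139.7 CPM at 30 ng/ml and 40.6 and 48.4 CPM at 100 ng/ml (log2 -1.81 ± 0.12, edgeR adjusted p = 0.000168). These genes were lower in both libraries at 100 ng/ml than in either at 30 ng/ml. Nfkbie, the inhibitor IkB-epsilon, was at 73.97 and 57.1 CPM at 30 ng/ml and 14.6 and 17.8 CPM at 100 ng/ml (log2 -2.02 ± 0.15, edgeR adjusted p = 0.000212). Birc3, the ligase cIAP2, was at 80.8 and 71.8 CPM at 30 ng/ml and 34.1 and 32.3 CPM at 100 ng/ml (log2 -1.20 ± 0.08, edgeR adjusted p = 0.000177). Traf1, an adaptor induced by NF-kB, was at 28.99 and 23.05 CPM at 30 ng/ml and 3.72 and 2.10 CPM at 100 ng/ml (log2 -3.16 ± 0.30, edgeR adjusted p = 0.0005). Tnfaip3, the deubiquitinase A20, was at 24.8 and 37.2 CPM at 30 ng/ml and 9.15 and 11.9 CPM at 100 ng/ml (log2 -1.56 ± 0.20, edgeR adjusted p = 0.00188). The RelA subunit and the IKK kinases were not called: Rela (log2 change -0.36, 95% interval -0.63 to -0.08), Ikbkb (-0.09, -0.32 to 0.13) and Chuk (0.17, 0.01 to 0.33). The count of lower members was 11 without 30 ng/ml replicate 1 and 12 without 100 ng/ml replicate 1. Nfkb2 overlaps exons of another gene; Relb, Traf1, Tnfaip3 and the 3 uncalled members were named after their values were seen, to show the range of the list.

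The start-site upstream sequence of some of these genes holds the NF-kB consensus motif. Stretches are shown for genes named by rule in the NF-kB, chemokine or TNF superfamily lists or as leading genes, where a match was present. The call was not a criterion, and all genes shown were called lower at 100 ng/ml. The letters are from RefSeq promoters of build GRCm38.p6, read 5′ to 3′ on the strand of the gene. The 10 bases of the motif match nearest the start are in capitals. Madcam1 held 2 matches, Tnfrsf9 3 and Nfkb2 4. In Tnfrsf9 the bases in capitals fit the motif on both strands and count as 2 of its 3 matches. Other matches of these genes are in lower case or outside the stretch shown. In Nfkbia, Madcam1, Ccl9 and Cdhr1 the match in capitals was found on the opposite strand.
Nfkb2, chr19:46304716-46304736, plus strand: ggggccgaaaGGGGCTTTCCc
Nfkbia, chr12:55492648-55492696, minus strand: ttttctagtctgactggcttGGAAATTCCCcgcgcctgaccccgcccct
Nfkbie, chr17:45555574-45555623, plus strand: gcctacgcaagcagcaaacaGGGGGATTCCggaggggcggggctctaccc
Tnfrsf9, chr4:150927947-150927976, plus strand: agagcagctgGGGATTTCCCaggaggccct
Madcam1, chr10:79664469-79664518, plus strand: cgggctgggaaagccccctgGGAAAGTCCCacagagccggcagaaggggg
Ccl9, chr11:83578642-83578691, minus strand: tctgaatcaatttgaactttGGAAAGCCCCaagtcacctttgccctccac
Cdhr1, chr14:37098556-37098597, minus strand: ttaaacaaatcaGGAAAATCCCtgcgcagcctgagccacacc
The first 3 are NF-kB subunit and inhibitor genes, Tnfrsf9 is the receptor described with the TNF superfamily, and the last 3 are leading genes on the lower side. The match began 11 bases before the start of the RefSeq entry in Nfkb2, 29 in Nfkbia, 106 in Nfkbie, 42 in Tnfrsf9, 70 in Madcam1, 35 in Ccl9 and 238 in Cdhr1. In Nfkb2 and Tnfrsf9 that start lies inside the GENCODE M21 gene, downstream of the gene's first base, and the stretch shown overlaps an annotated exon. Both strands of the 250 bases before the start were searched. In the shares that follow, a gene or promoter counted once, however many matches it held. A match was present in 11 of 25 NF-kB members with a promoter entry (44%), 5 of 14 chemokines (35.7%), 8 of 20 class I presentation genes (40%) and 1 of 18 TNF superfamily members (5.56%). Of the leading genes, 3 of 9 on the lower side and 0 of 12 on the higher side held one. The share was 5.62% of 11452 tested genes with an entry, 8.9% of 1034 called lower, 5.66% of 901 called higher and 3.9% of all 32851 promoters in the table. A match is a description of the letters and does not show a site in use.

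Chemokines had the lowest median log2 change of the 23 pathway lists, -1.06. Of 20 tested, 8 were lower and 3 higher at 100 ng/ml, against 8.04% and 7.15% of all genes tested. Ccl2, the main attractant of monocytes, was at 1082 and 807 CPM at 30 ng/ml, 270.0 and 296 CPM at 100 ng/ml and 91.6 and 118 CPM untreated (log2 -1.74 ± 0.16, edgeR adjusted p = 0.00045). Cxcl16, a membrane-bound chemokine for CXCR6 cells, was at 253 and 226 CPM at 30 ng/ml and 66.5 and 64.7 CPM at 100 ng/ml (log2 -1.87 ± 0.08, edgeR adjusted p = 7.17e-05), and overlaps exons of a neighbour. Ccl9, 1 of the genes with a printed promoter stretch, was at 21.5 and 14.5 CPM at 30 ng/ml and 1.43 and 2.45 CPM at 100 ng/ml (log2 -3.21 ± 0.29, edgeR adjusted p = 0.000427). All 3 were lower in both libraries at 100 ng/ml than in either at 30 ng/ml. The 3 higher chemokines were Cxcl5, Cxcl14 and Cx3cl1. Cxcl5, a neutrophil attractant, was at 29.8 and 33.7 CPM at 30 ng/ml and 59.6 and 83.7 CPM at 100 ng/ml (log2 1.17 ± 0.18, edgeR adjusted p = 0.00385). Cxcl14, a homeostatic chemokine, was at 43.97 and 45.2 CPM at 30 ng/ml and 63.4 and 65.1 CPM at 100 ng/ml (log2 0.53 ± 0.07, edgeR adjusted p = 0.00209). Cx3cl1 (fractalkine) was at 9.96 and 8.29 against 15.2 and 15.8 CPM (log2 0.77 ± 0.20, edgeR adjusted p = 0.0413). The Cx3cl1 call was lost when either untreated library, either 30 ng/ml library or either 100 ng/ml library was left out (edgeR adjusted p between 0.0597 and 0.177). The list median ran from -1.51 to -0.423 when single libraries were left out.

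Among 19 tested cytokines, 6 were lower and 3 higher, against 8.04% and 7.15% of all genes tested. The median was -0.0944 and changed sign to 0.0457 at 1 end of the leave-one-out fits. Il33, an alarmin of stromal cells, was at 208 and 234 CPM at 30 ng/ml and 64.99 and 61.95 CPM at 100 ng/ml (log2 -1.80 ± 0.12, edgeR adjusted p = 0.000153). Lif, a cytokine of the IL-6 family, was at 43.3 and 44.6 CPM at 30 ng/ml and 13.05 and 11.5 CPM at 100 ng/ml (log2 -1.84 ± 0.14, edgeR adjusted p = 0.000226). Csf1, the growth factor of macrophages, was at 841 and 726 CPM at 30 ng/ml and 366 and 389.9 CPM at 100 ng/ml (log2 -1.05 ± 0.08, edgeR adjusted p = 0.000256). These were lower in every library at 100 ng/ml, whereas Il6, Kitl and Il16 were higher. Il6 was at 28.05 and 30.9 CPM untreated and 9.03 and 16.9 CPM at 30 ng/ml and 29.8 and 29.5 CPM at 100 ng/ml (log2 1.19 ± 0.25, edgeR adjusted p = 0.0161). The Il6 call was lost when either 100 ng/ml library was left out (edgeR adjusted p between 0.0651 and 0.069). Kitl, stem cell factor (log2 0.58 ± 0.08, edgeR adjusted p = 0.00311) and Il16 (log2 0.96 ± 0.11, edgeR adjusted p = 0.000919) were called as well, and Il16 overlaps exons of another gene.

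Genes of cell adhesion and lymphoid-type stroma were lower in 10 of 13 tested members and higher in 2, with a median of -0.815. Of all genes tested, 8.04% were lower and 7.15% higher. Icam1, a ligand of leukocyte integrins, was at 551 and 473 CPM at 30 ng/ml and 180.1 and 187 CPM at 100 ng/ml (log2 -1.48 ± 0.08, edgeR adjusted p = 9.51e-05) and 129 and 132 CPM untreated. Spib, a transcription factor of the ETS family, was at 276 and 222 CPM at 30 ng/ml and 37.1 and 36.9 CPM at 100 ng/ml (log2 -2.75 ± 0.20, edgeR adjusted p = 0.000226) and 0.200 and 0.562 CPM untreated. Cd34, a sialomucin of fibroblasts and endothelial cells, was at 39.4 and 25.98 CPM at 30 ng/ml and 6.66 and 5.10 CPM at 100 ng/ml (log2 -2.47 ± 0.22, edgeR adjusted p = 0.000405). Each of the 3 was lower in both libraries at 100 ng/ml. Vcam1, an adhesion receptor for leukocytes, was at 1081 and 917 and then 577 and 559 CPM (log2 -0.81 ± 0.08, edgeR adjusted p = 0.000466); it was named after its values were seen. Jam2, a junctional adhesion molecule, was higher, at 72.7 and 90.5 CPM at 30 ng/ml and 179 and 184 CPM at 100 ng/ml (log2 1.15 ± 0.11, edgeR adjusted p = 0.000491), and so was Ltbr. Icam1 and Cd34 overlap exons of other genes. The higher count was 1 when any single library at 30 or 100 ng/ml was left out.

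Class I antigen presentation was lower in 13 of 25 tested genes and higher in 0, against 8.04% and 7.15% of all genes. The median was -0.541. H2-K1 was at 327 and 281 CPM at 30 ng/ml and 147 and 160.2 CPM at 100 ng/ml (log2 -0.98 ± 0.13, edgeR adjusted p = 0.00232). H2-D1 was at 510.0 and 455 CPM at 30 ng/ml and 254 and 267 CPM at 100 ng/ml (log2 -0.89 ± 0.09, edgeR adjusted p = 0.000691); both encode classical heavy chains. H2-Q4 was at 114 and 101 CPM at 30 ng/ml and 40.3 and 44.5 CPM at 100 ng/ml (log2 -1.34 ± 0.12, edgeR adjusted p = 0.000344). H2-Q7 was at 17.4 and 11.97 CPM at 30 ng/ml and 1.96 and 2.70 CPM at 100 ng/ml (log2 -2.65 ± 0.26, edgeR adjusted p = 0.000581). The class I genes are near-identical copies among which reads can be split, so single members are uncertain. The light chain B2m, a unique gene, was at 1559 and 1297 CPM at 30 ng/ml and 916 and 1031 CPM at 100 ng/ml (log2 -0.55 ± 0.09, edgeR adjusted p = 0.00622) (named after its values were seen). No member was called between 100 ng/ml and untreated cells (1.12% of all genes were called there in either direction), and 16 were called higher between 30 ng/ml and untreated cells (12.6%). Of 49 interferon-stimulated genes, 6 were lower and 1 higher, a share near that of all genes, with a median of -0.428 that ran from -0.752 to -0.132 when single libraries were left out. Irf1, an interferon-induced transcription factor, was at 123 and 93.2 CPM at 30 ng/ml and 49.98 and 56.5 CPM at 100 ng/ml (log2 -1.02 ± 0.13, edgeR adjusted p = 0.00184). Ifit2, an antiviral RNA-binding protein, stood on the other side, at 23.1 and 18.9 CPM at 30 ng/ml and 31.95 and 34.8 CPM at 100 ng/ml (log2 0.67 ± 0.12, edgeR adjusted p = 0.0069). The summed level of this list was 2801 CPM in 30 ng/ml replicate 1 and 1933 CPM in replicate 2, and the count of lower members changed with the library left out: 2 without 30 ng/ml replicate 1, 16 without 30 ng/ml replicate 2, and 2 when either library at 100 ng/ml was left out. DESeq2 called 13 lower. The call of Parp14 (log2 -0.92 ± 0.17, edgeR adjusted p = 0.00896) was lost when 100 ng/ml replicate 1 was left out (edgeR adjusted p = 0.0612). The call of Lgals3bp (log2 -0.95 ± 0.19, edgeR adjusted p = 0.014) was lost when 30 ng/ml replicate 1 or 100 ng/ml replicate 2 was left out (edgeR adjusted p between 0.0859 and 0.0887). Irf1 and Parp14 overlap exons of other genes.

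Complement and acute-phase genes split, with 5 of 19 higher and 2 lower, against 7.15% and 8.04% of all genes tested. The lower count was near that share, and the higher count was smaller without 30 ng/ml replicate 1. C3, the central complement protein and 1 of the most abundant lower transcripts, was at 5883 and 5159 CPM at 30 ng/ml and 2375 and 2770.2 CPM at 100 ng/ml (log2 -1.10 ± 0.08, edgeR adjusted p = 0.000233), with 1049 and 1101 CPM untreated. Serping1, an inhibitor that blocks C1, was higher, at 586 and 563 CPM at 30 ng/ml and 807 and 938 CPM at 100 ng/ml (log2 0.60 ± 0.08, edgeR adjusted p = 0.00247). C1s1, a protease of the C1 complex, was lower (log2 -0.39 ± 0.05, edgeR adjusted p = 0.00271) and overlaps a neighbour.

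**Figure D3:**
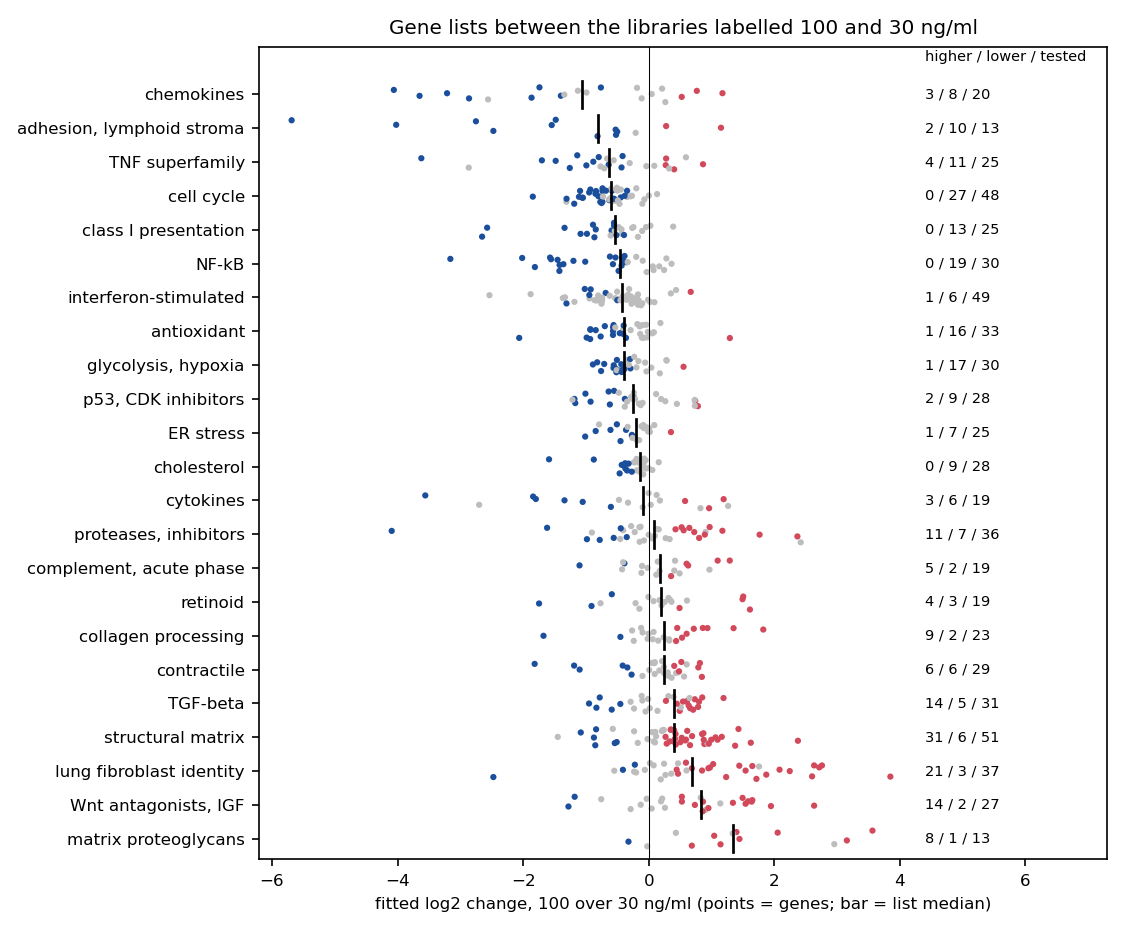
Each point is a tested member of 1 of 23 pathway lists, placed by its fitted log2 change, 100 over 30 ng/ml; red was called higher, blue lower and grey not called, and the black bar is the list median. Lists are ordered by median, from -1.06 for chemokines to 1.34 for matrix proteoglycans, and the counts at the right give higher, lower and tested members.

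Structural matrix genes formed the largest group on the higher side: 31 of 51 tested members were higher and 6 lower at 100 ng/ml, with a median of 0.400, against 7.15% of all genes called higher. The summed level of the list was 31206 to 35609 CPM at 30 ng/ml, 48826 to 50146 CPM at 100 ng/ml and 53040.4 to 55289 CPM untreated. Col3a1, a fibrillar collagen, was at 2439 and 3378 CPM at 30 ng/ml and 7336 and 7771 CPM at 100 ng/ml (log2 1.38 ± 0.13, edgeR adjusted p = 0.000454). Fn1, fibronectin, was at 6683 and 8311 CPM at 30 ng/ml and 11549 and 11086 CPM at 100 ng/ml (log2 0.59 ± 0.10, edgeR adjusted p = 0.00551). Col1a2, a chain of the main fibrillar collagen, was at 3193 and 3403 CPM at 30 ng/ml and 4199.8 and 4505 CPM at 100 ng/ml (log2 0.40 ± 0.05, edgeR adjusted p = 0.00166). These 3 were among the most abundant transcripts and did not overlap between the groups. Nid2, a basement membrane glycoprotein, had the largest change of the list, at 57.6 and 86.6 CPM at 30 ng/ml and 348 and 401 CPM at 100 ng/ml (log2 2.38 ± 0.19, edgeR adjusted p = 0.000289). Fbln5, which organises elastic fibres, was at 31.3 and 33.4 CPM at 30 ng/ml and 65.3 and 69.9 CPM at 100 ng/ml (log2 1.06 ± 0.09, edgeR adjusted p = 0.000294). Col6a2, a microfibrillar collagen, was at 86.2 and 92.9 CPM at 30 ng/ml and 158 and 173 CPM at 100 ng/ml (log2 0.89 ± 0.08, edgeR adjusted p = 0.000415). Thbs1, thrombospondin, was higher (log2 0.61 ± 0.05, edgeR adjusted p = 0.000286). The 6 lower members were Lama5, Col5a3, Eln, Col7a1, Col12a1 and Col18a1, with log2 changes of -1.08, -0.87, -0.85, -0.84, -0.54 and -0.51. Eln, the core of elastic fibres, was at 164 and 143 CPM at 30 ng/ml and 85.1 and 84.9 CPM at 100 ng/ml (log2 -0.85 ± 0.08, edgeR adjusted p = 0.000597). Fn1, Col3a1, Nid2, Thbs1, Eln and Col7a1 overlap exons of other genes.

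Of 13 tested proteoglycans, 8 were higher and 1 lower, with a median of 1.34, the highest of the 23 pathway lists. Against 7.15% higher and 8.04% lower among all genes tested, the lower count was near that share. Besides Aspn and Ogn, Fmod (fibromodulin) was at 26.6 and 26.8 CPM at 30 ng/ml and 100.2 and 122 CPM at 100 ng/ml (log2 2.05 ± 0.16, edgeR adjusted p = 0.000264). Prelp was at 423 and 468 CPM at 30 ng/ml and 896 and 939.9 CPM at 100 ng/ml (log2 1.04 ± 0.07, edgeR adjusted p = 0.00014). The 2 most abundant members did not share this. Bgn (biglycan) was at 4971 and 5068 against 4710.4 and 5171 CPM and was not called (log2 change -0.02, 95% interval -0.14 to 0.10). Dcn (decorin) was lower, at 1369 and 1256 CPM at 30 ng/ml and 1013 and 1087 CPM at 100 ng/ml (log2 -0.32 ± 0.08, edgeR adjusted p = 0.0282). The call of Dcn was lost when 30 ng/ml replicate 1 or either 100 ng/ml library was left out (edgeR adjusted p between 0.0598 and 0.154), and Bgn was named after its values were seen. Among 23 genes of collagen processing, 9 were higher and 2 lower, with a median of 0.238. Here too the lower count was near the share of all genes tested. Lox, lysyl oxidase, which cross-links collagen and elastin, was at 125 and 166 CPM at 30 ng/ml and 372 and 373 CPM at 100 ng/ml (log2 1.35 ± 0.12, edgeR adjusted p = 0.00038). Loxl2 was at 139.7 and 153 CPM at 30 ng/ml and 258 and 274 CPM at 100 ng/ml (log2 0.86 ± 0.08, edgeR adjusted p = 0.000445). Adamts2, a procollagen N-proteinase, was at 624 and 721 CPM at 30 ng/ml and 1254 and 1318 CPM at 100 ng/ml (log2 0.94 ± 0.09, edgeR adjusted p = 0.000491). The related Adamts14 was lower, at 44.5 and 35.5 CPM at 30 ng/ml and 13.6 and 11.5 CPM at 100 ng/ml (log2 -1.68 ± 0.14, edgeR adjusted p = 0.000287), as was P4ha2, a prolyl hydroxylase subunit (log2 -0.45 ± 0.07, edgeR adjusted p = 0.00384). Lox, Loxl2 and Prelp overlap exons of other genes.

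Proteases and their inhibitors stood on both sides, 11 of 36 higher and 7 lower, against 7.15% and 8.04% of all genes tested. The lower ones included Mmp9, Mmp10, Mmp12, Ctsk, Timp1 and Serpine2. Mmp10, a stromelysin, was at 111 and 105 CPM at 30 ng/ml and 37.1 and 33.3 CPM at 100 ng/ml (log2 -1.62 ± 0.09, edgeR adjusted p = 0.000103). Mmp12, the macrophage elastase, had a log2 change of -0.98 ± 0.15 (edgeR adjusted p = 0.0042) and Ctsk, cathepsin K, of -0.56 ± 0.09 (edgeR adjusted p = 0.00494). The call of Serpine2 (log2 -0.45 ± 0.09, edgeR adjusted p = 0.014) was lost when either 30 ng/ml library or 100 ng/ml replicate 1 was left out (edgeR adjusted p between 0.0552 and 0.0903). The inhibitors of metalloproteinases diverged: Timp3 was at 265 and 309 CPM at 30 ng/ml and 967 and 986 CPM at 100 ng/ml (log2 1.77 ± 0.08, edgeR adjusted p = 8.28e-05). Timp1 was at 547 and 543 CPM at 30 ng/ml and 415 and 441 CPM at 100 ng/ml (log2 -0.35 ± 0.05, edgeR adjusted p = 0.00349). Timp2, at 1923 and 1850.1 against 1880.2 and 1893 CPM, did not pass the test, with a 95% interval of -0.11 to 0.11. Adamts5, an aggrecanase, was higher, at 177 and 195 CPM at 30 ng/ml and 368 and 362 CPM at 100 ng/ml (log2 0.97 ± 0.08, edgeR adjusted p = 0.000271). Timp3 and Mmp12 overlap exons of other genes, and Timp2 was named after its values were seen.

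Genes that mark lung fibroblasts and their subsets were higher in 21 of 37 tested members and lower in 3, with a median of 0.689. Against 7.15% higher and 8.04% lower among all genes tested, the lower count of the list was near that share. The summed level was 8450.4 to 9114 CPM at 30 ng/ml, 13069 to 13387 CPM at 100 ng/ml and 14568 to 14768 CPM untreated. Itga8, an integrin of alveolar fibroblasts, was at 33.5 and 31.2 CPM at 30 ng/ml and 115 and 122 CPM at 100 ng/ml (log2 1.87 ± 0.08, edgeR adjusted p = 7.26e-05). Gucy1b3, the beta subunit of soluble guanylate cyclase, was at 7.67 and 9.59 CPM at 30 ng/ml and 35.9 and 37.2 CPM at 100 ng/ml (log2 2.08 ± 0.12, edgeR adjusted p = 0.000106). Gas1, a growth arrest gene and Hedgehog co-receptor, was at 135 and 153 CPM at 30 ng/ml and 393 and 391 CPM at 100 ng/ml (log2 1.44 ± 0.09, edgeR adjusted p = 0.00014). Tcf21, a transcription factor of lung mesenchyme named after its values were seen, was at 11.1 and 12.8 CPM at 30 ng/ml and 36.8 and 41.6 CPM at 100 ng/ml (log2 1.72 ± 0.19, edgeR adjusted p = 0.000958). The lower members were Cd34, Plin2, a lipid droplet protein (log2 -0.41 ± 0.07, edgeR adjusted p = 0.00635), and Pdgfra. Pdgfra, the receptor for PDGF-A, was at 1557 and 1423 against 1252 and 1306 CPM (log2 -0.22 ± 0.05, edgeR adjusted p = 0.0287). The Pdgfra call was lost when either untreated library, 30 ng/ml replicate 1 or either 100 ng/ml library was left out (edgeR adjusted p between 0.056 and 0.15). Itga8, Gas1 and Pdgfra overlap exons of other genes. Secreted Wnt modulators and the insulin-like growth factor axis had 14 of 27 members higher and 2 lower, with a median of 0.829. Here too the lower count was near the share of all genes tested. Igf1, a growth factor for neighbouring epithelium, was at 37.2 and 45.1 CPM at 30 ng/ml and 163 and 154 CPM at 100 ng/ml (log2 1.95 ± 0.10, edgeR adjusted p = 9.51e-05) and 228 and 227 CPM untreated. Sfrp1 was at 461 and 588 CPM at 30 ng/ml and 1468 and 1588 CPM at 100 ng/ml (log2 1.54 ± 0.10, edgeR adjusted p = 0.000162). Igfbp4, an IGF-binding protein, was at 741 and 802 CPM at 30 ng/ml and 1423 and 1559.6 CPM at 100 ng/ml (log2 0.95 ± 0.06, edgeR adjusted p = 0.000168). Rspo2, an R-spondin that amplifies Wnt signalling, was lower, at 33.3 and 28.4 CPM at 30 ng/ml and 12.9 and 12.5 CPM at 100 ng/ml (log2 -1.28 ± 0.13, edgeR adjusted p = 0.000694), as was the protease Htra1 (log2 -1.18 ± 0.10, edgeR adjusted p = 0.000344).

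Of 31 genes of TGF-beta signalling, 14 were higher and 5 lower, with a median of 0.396, against 7.15% and 8.04% of all genes tested. The ligands diverged. Tgfb1 was lower, at 100.4 and 104 CPM at 30 ng/ml and 58.7 and 56.2 CPM at 100 ng/ml (log2 -0.83 ± 0.07, edgeR adjusted p = 0.000287). Tgfb3, named after its values were seen, was higher, at 80.8 and 77.5 CPM at 30 ng/ml and 112 and 128 CPM at 100 ng/ml (log2 0.60 ± 0.09, edgeR adjusted p = 0.00339). Ltbp1, whose product holds latent TGF-beta in the matrix, and its relative Ltbp2 diverged too. Ltbp1 was higher, at 246 and 273 CPM at 30 ng/ml and 421 and 427 CPM at 100 ng/ml (log2 0.71 ± 0.06, edgeR adjusted p = 0.000416). Ltbp2 was lower, at 1812 and 1738 CPM at 30 ng/ml and 918 and 919 CPM at 100 ng/ml (log2 -0.95 ± 0.04, edgeR adjusted p = 7.26e-05). Nox4, an NADPH oxidase induced by TGF-beta, was at 15.6 and 18.1 CPM at 30 ng/ml and 35.6 and 41.3 CPM at 100 ng/ml (log2 1.19 ± 0.12, edgeR adjusted p = 0.000534). Other lower members included Tgif1 (log2 -0.45 ± 0.07, edgeR adjusted p = 0.00456) and Tgfbi (log2 -0.59 ± 0.11, edgeR adjusted p = 0.00926); the call of Tgfbi was lost when 30 ng/ml replicate 1 or either 100 ng/ml library was left out (edgeR adjusted p between 0.053 and 0.0621). The counts were 10 higher and 3 lower without 30 ng/ml replicate 1, and 9 higher and 4 lower without 100 ng/ml replicate 1. Of 29 contractile genes, 6 were higher and 6 lower, against 7.15% and 8.04% of all genes tested. Des, desmin, was at 105 and 93.97 CPM at 30 ng/ml and 43.4 and 49.6 CPM at 100 ng/ml (log2 -1.10 ± 0.13, edgeR adjusted p = 0.00131). Pdlim4, an actin-associated protein, was at 9.49 and 7.75 CPM at 30 ng/ml and 2.59 and 2.30 CPM at 100 ng/ml (log2 -1.82 ± 0.22, edgeR adjusted p = 0.00131). Fhl2 was higher, at 31.3 and 27.8 CPM at 30 ng/ml and 49.2 and 54.9 CPM at 100 ng/ml (log2 0.82 ± 0.11, edgeR adjusted p = 0.00224). Acta2, smooth muscle actin and the usual marker of myofibroblasts, was at 628 and 484 against 552 and 765 CPM and was not called (log2 change 0.24, 95% interval -0.18 to 0.67); it was named after its values were seen. The contractile counts were 3 and 3 without 30 ng/ml replicate 1, 8 and 3 without 100 ng/ml replicate 1, and 3 and 4 without 100 ng/ml replicate 2; DESeq2 called 11 and 6. Ltbp2 and Des overlap exons of other genes.

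Retinoid genes stood on both sides, against 7.15% higher and 8.04% lower among all genes tested. Of 19 tested, 4 were higher and 3 lower: the higher ones were Adh1 and the retinaldehyde dehydrogenases Aldh1a1, Aldh1a2 and Aldh1a3, which make retinoic acid; Aldh1a2 was named after its values were seen. Aldh1a1 was at 27.8 and 30.1 CPM at 30 ng/ml and 71.95 and 92.6 CPM at 100 ng/ml (log2 1.51 ± 0.17, edgeR adjusted p = 0.00112). Aldh1a3 was at 8.72 and 12.3 CPM at 30 ng/ml and 30.3 and 29.00 CPM at 100 ng/ml (log2 1.49 ± 0.18, edgeR adjusted p = 0.00131). Adh1, an alcohol dehydrogenase that overlaps a neighbour, was at 17.9 and 26.2 CPM at 30 ng/ml and 65.04 and 69.7 CPM at 100 ng/ml (log2 1.61 ± 0.16, edgeR adjusted p = 0.000656). The lower ones were Rdh10, which makes retinaldehyde (log2 -0.59 ± 0.08, edgeR adjusted p = 0.00264), Rarres1 (log2 -1.75 ± 0.26, edgeR adjusted p = 0.0035) and Cyp26b1, which breaks retinoic acid down (log2 -0.91 ± 0.24, edgeR adjusted p = 0.0383). The call of Cyp26b1 was lost when either 10 ng/ml library, either 30 ng/ml library or either 100 ng/ml library was left out (edgeR adjusted p between 0.0511 and 0.184).

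**Figure D4:**
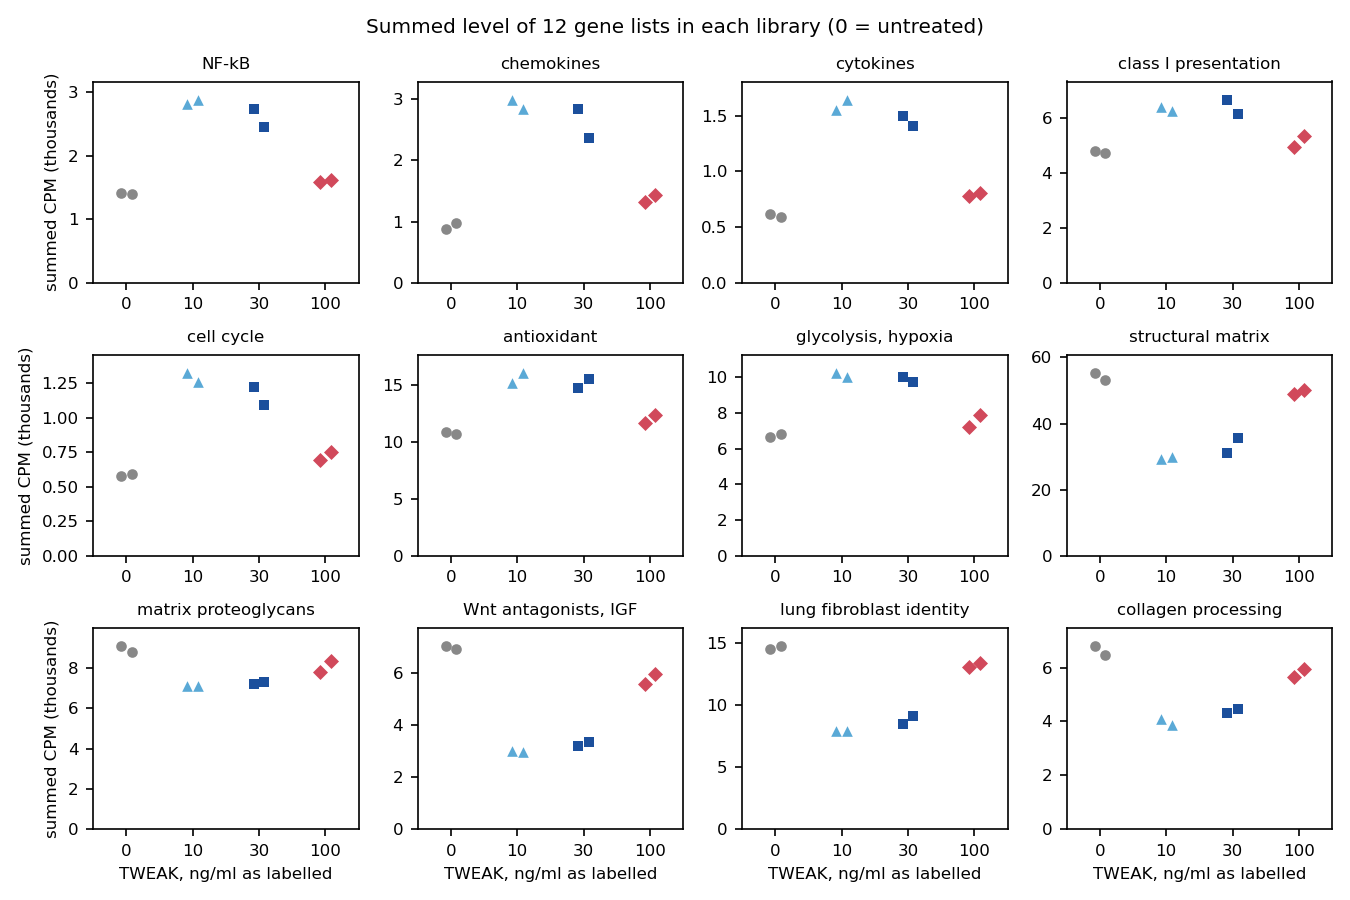
Summed level (TMM-scaled CPM, axis from 0) of 12 pathway lists in each of the 8 libraries, placed by labelled dose with untreated at 0. In the NF-kB, chemokine, cytokine, class I, cell cycle, antioxidant and glycolysis panels the libraries at 100 ng/ml lie below those at 30 ng/ml, and in the matrix, Wnt and fibroblast panels they are the higher ones; the untreated libraries lie beyond those at 100 ng/ml in each panel.

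Cell cycle genes were lower at 100 ng/ml in 27 of 48 tested members and higher in 0, against 8.04% and 7.15% of all genes. Their median was -0.603. Their summed level was 1089.7 to 1223 CPM at 30 ng/ml, 695 to 748 CPM at 100 ng/ml and 576 to 592 CPM untreated. Ccnd1, the cyclin of entry into the cycle, was at 182 and 139 CPM at 30 ng/ml and 45.7 and 43.8 CPM at 100 ng/ml (log2 -1.85 ± 0.12, edgeR adjusted p = 0.000162). Mki67, the marker of cycling cells, was at 48.3 and 40.2 CPM at 30 ng/ml and 18.9 and 23.7 CPM at 100 ng/ml (log2 -1.05 ± 0.14, edgeR adjusted p = 0.00232). Mcm5, a subunit of the replicative helicase, was at 25.99 and 20.7 CPM at 30 ng/ml and 9.65 and 9.18 CPM at 100 ng/ml (log2 -1.31 ± 0.14, edgeR adjusted p = 0.00094). Mcm7 was at 56.1 and 48.2 CPM at 30 ng/ml and 29.5 and 30.4 CPM at 100 ng/ml (log2 -0.80 ± 0.11, edgeR adjusted p = 0.0022). The 4 genes were lower in both libraries at 100 ng/ml than in either at 30 ng/ml. The count of lower members was 8 of 48 without 30 ng/ml replicate 1 and 8 without 100 ng/ml replicate 1. Inhibitors of the cycle and p53 targets were also lower more often than higher: 9 of 28 were lower and 2 higher, with a median of -0.248. The higher count was near the share of all genes tested. Cdkn2b, the inhibitor p15, was at 59.96 and 56.6 CPM at 30 ng/ml and 27.6 and 23.8 CPM at 100 ng/ml (log2 -1.18 ± 0.10, edgeR adjusted p = 0.000373). Plk2, a p53-induced kinase, was at 343 and 316 CPM at 30 ng/ml and 147 and 146 CPM at 100 ng/ml (log2 -1.17 ± 0.07, edgeR adjusted p = 0.000103). Mdm2, the ligase of p53, was at 237 and 231 CPM at 30 ng/ml and 126 and 121 CPM at 100 ng/ml (log2 -0.93 ± 0.07, edgeR adjusted p = 0.000214). Cdkn1b, the inhibitor p27, was higher, at 53.5 and 57.7 CPM at 30 ng/ml and 97.1 and 88.7 CPM at 100 ng/ml (log2 0.74 ± 0.08, edgeR adjusted p = 0.000821). Cdkn2c, the inhibitor p18, was higher too (log2 0.78 ± 0.15, edgeR adjusted p = 0.0127). The Cdkn2c call was lost when either 30 ng/ml library or 100 ng/ml replicate 2 was left out (edgeR adjusted p between 0.0572 and 0.0727). Ccnd1 and Mcm7 overlap exons of other genes.

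Antioxidant genes, many of them NRF2 targets, were lower in 16 of 33 members and higher in 1, against 8.04% and 7.15% of all genes. The median was -0.399. Slc7a11, the cystine importer, was at 135 and 129.6 CPM at 30 ng/ml and 35.2 and 28.1 CPM at 100 ng/ml (log2 -2.06 ± 0.15, edgeR adjusted p = 0.000198). Hmox1, heme oxygenase, was at 499 and 534 CPM at 30 ng/ml and 268 and 253 CPM at 100 ng/ml (log2 -0.99 ± 0.06, edgeR adjusted p = 0.000139). Sqstm1, the autophagy receptor p62, was at 1518 and 1585 CPM at 30 ng/ml and 875 and 855 CPM at 100 ng/ml (log2 -0.84 ± 0.04, edgeR adjusted p = 9.51e-05). Prdx1, a peroxiredoxin, was at 1382 and 1441 CPM at 30 ng/ml and 827 and 834 CPM at 100 ng/ml (log2 -0.77 ± 0.06, edgeR adjusted p = 0.000226). Gpx3, the secreted glutathione peroxidase, was the 1 higher member, at 175 and 228 CPM at 30 ng/ml and 459 and 528 CPM at 100 ng/ml (log2 1.29 ± 0.13, edgeR adjusted p = 0.000597). Glycolysis and hypoxia genes were lower in 17 of 30 and higher in 1, with a median of -0.396; 11 were lower without 30 ng/ml replicate 1. Pgk1, phosphoglycerate kinase, was at 617 and 548 CPM at 30 ng/ml and 332 and 328 CPM at 100 ng/ml (log2 -0.82 ± 0.07, edgeR adjusted p = 0.000305). Slc2a1, a glucose transporter, was at 233 and 238 CPM at 30 ng/ml and 162 and 165 CPM at 100 ng/ml (log2 -0.53 ± 0.06, edgeR adjusted p = 0.00112). Pgam1 (log2 -0.71 ± 0.07, edgeR adjusted p = 0.000522) and the lactate exporter Slc16a3 (log2 -0.76 ± 0.08, edgeR adjusted p = 0.000945) were lower too. The higher member was Adm, adrenomedullin (log2 0.56 ± 0.14, edgeR adjusted p = 0.0329). The Adm call was lost when either untreated library, either 30 ng/ml library or 100 ng/ml replicate 2 was left out (edgeR adjusted p between 0.0561 and 0.16). Sqstm1 and Slc2a1 overlap exons of other genes.

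Endoplasmic reticulum stress genes were lower in 7 of 25 and higher in 1, and the count of lower members was 2 without 30 ng/ml replicate 1 or 100 ng/ml replicate 2, 3 without 30 ng/ml replicate 2 and 4 without 100 ng/ml replicate 1. In the fit of all 8 libraries, 8.04% of all genes tested were lower and 7.15% higher. Ern1, the sensor IRE1, was at 195 and 197 CPM at 30 ng/ml and 118 and 101 CPM at 100 ng/ml (log2 -0.84 ± 0.10, edgeR adjusted p = 0.00151), and Dnajc3, a chaperone of the same organelle, was higher (log2 0.35 ± 0.05, edgeR adjusted p = 0.00413). Chac1 (log2 -1.01 ± 0.21, edgeR adjusted p = 0.0165) and Asns, asparagine synthetase (log2 -0.51 ± 0.11, edgeR adjusted p = 0.0179), were lower. The Chac1 call was lost when 30 ng/ml replicate 1 or 100 ng/ml replicate 2 was left out (edgeR adjusted p between 0.079 and 0.101). The Asns call was lost when 30 ng/ml replicate 1 or either 100 ng/ml library was left out (edgeR adjusted p between 0.0664 and 0.101). Cholesterol genes were lower in 9 of 28 and higher in 0, and 5 were lower without 30 ng/ml replicate 2. The largest changes of the list were in the exporters: Abcg1 was at 8.70 and 6.38 CPM at 30 ng/ml and 2.26 and 2.75 CPM at 100 ng/ml (log2 -1.59 ± 0.22, edgeR adjusted p = 0.00257). Abca1 was at 629.8 and 643 CPM at 30 ng/ml and 373 and 321 CPM at 100 ng/ml (log2 -0.87 ± 0.09, edgeR adjusted p = 0.000858). Insig1, a regulator of the synthetic arm, was lower (log2 -0.32 ± 0.05, edgeR adjusted p = 0.00511).

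The remaining abundant transcripts moved by small amounts. Mgp, matrix Gla protein, an inhibitor of calcification, was at 3256 and 3779 CPM at 30 ng/ml and 5342 and 5273 CPM at 100 ng/ml (log2 0.59 ± 0.08, edgeR adjusted p = 0.00187). Lrp1, an endocytic receptor, was higher (log2 0.39 ± 0.10, edgeR adjusted p = 0.0363). The Lrp1 call was lost when either untreated library, 30 ng/ml replicate 1 or either 100 ng/ml library was left out (edgeR adjusted p between 0.0543 and 0.181). Grem1, a secreted BMP antagonist, was at 4096 and 3667 CPM at 30 ng/ml and 3362 and 3077 CPM at 100 ng/ml (log2 -0.27 ± 0.07, edgeR adjusted p = 0.0371). The Grem1 call was lost when either untreated library, 30 ng/ml replicate 1 or either 100 ng/ml library was left out (edgeR adjusted p between 0.0507 and 0.186). Flna, filamin A, was at 2085 and 2047 CPM at 30 ng/ml and 1683 and 1738 CPM at 100 ng/ml (log2 -0.27 ± 0.04, edgeR adjusted p = 0.00339). Hsp90ab1, a chaperone, was at 2156 and 2118 CPM at 30 ng/ml and 1475 and 1593 CPM at 100 ng/ml (log2 -0.48 ± 0.05, edgeR adjusted p = 0.000657). App, the amyloid precursor, was lower as well (log2 -0.29 ± 0.05, edgeR adjusted p = 0.00623) and overlaps a neighbour.

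Markers of other cell types were low in all libraries except for the mural list, and part of them differed between the doses. The mural list summed to 177 to 184 CPM at 30 ng/ml and 152 to 160 CPM at 100 ng/ml. The fall in Des (log2 -1.10), described with the contractile genes, was larger than the fall of this sum. The rest of the mural list summed higher at 100 than at 30 ng/ml. Of all genes tested, 7.15% were higher and 8.04% lower at 100 ng/ml. Mesothelial markers were higher at 100 ng/ml in 3 of 9 tested, summing to 19.7 to 25.4 CPM against 10.6 to 11.2 CPM at 30 ng/ml. Upk3b was at 1.56 and 1.82 CPM at 30 ng/ml and 3.80 and 6.61 CPM at 100 ng/ml (log2 1.62 ± 0.29, edgeR adjusted p = 0.00849). The Upk3b call was lost when 30 ng/ml replicate 1 was left out (edgeR adjusted p = 0.0651). The other two were Gpm6a (log2 2.09 ± 0.26, edgeR adjusted p = 0.00156) and Upk1b (log2 1.47 ± 0.32, edgeR adjusted p = 0.0203). The Upk1b call was lost when 30 ng/ml replicate 2 or 100 ng/ml replicate 2 was left out (edgeR adjusted p between 0.0854 and 0.101). Krt19, with 0 counts in both libraries at 30 ng/ml and 0.277 and 0.0751 CPM at 100 ng/ml, was not called (edgeR adjusted p = 0.0618). Cldn15 and Lrrn4, of the same list, had log2 changes of 0.64 and 0.89 and were not called. Macrophage markers summed to 56.04 to 68.9 CPM at 30 ng/ml and 49.3 to 52.3 CPM at 100 ng/ml, with 1 of 11 higher and 2 lower and a median log2 change of 0.260. The higher one was Csf1r, at 0.815 and 1.11 CPM at 30 ng/ml and 1.86 and 3.20 CPM at 100 ng/ml (log2 1.39 ± 0.37, edgeR adjusted p = 0.0431). The Csf1r call was lost when any 1 of the 8 libraries other than 100 ng/ml replicate 1 was left out (edgeR adjusted p between 0.0526 and 0.22). Itgam, with 0 counts in both libraries at 30 ng/ml and 0.603 and 0.05004 CPM at 100 ng/ml, was not called (edgeR adjusted p = 0.147). The lower ones were Cd14 (log2 -0.70 ± 0.16, edgeR adjusted p = 0.0262) and Cd68 (log2 -0.80 ± 0.15, edgeR adjusted p = 0.0113). The Cd14 call was lost when 30 ng/ml replicate 1 or 100 ng/ml replicate 1 was left out (edgeR adjusted p between 0.127 and 0.156). The Cd68 call was lost when 30 ng/ml replicate 1 or 100 ng/ml replicate 1 was left out (edgeR adjusted p between 0.0769 and 0.0795). Lyz2 (log2 change 0.26) was not called. Endothelial markers had 1 of 7 higher, Tek (log2 1.08 ± 0.24, edgeR adjusted p = 0.0208), and 1 lower, Cdh5. Cdh5 was at 3.41 and 2.53 CPM at 30 ng/ml and 0.528 and 0.525 CPM at 100 ng/ml (log2 -2.49 ± 0.30, edgeR adjusted p = 0.00141). The Tek call was lost when 30 ng/ml replicate 1 or either 100 ng/ml library was left out (edgeR adjusted p between 0.0704 and 0.128). Egfl7 (log2 change -0.02) was not called. Of 3 tested epithelial markers, Ager was lower, at 5.07 and 3.42 CPM at 30 ng/ml and 1.21 and 1.65 CPM at 100 ng/ml (log2 -1.57 ± 0.31, edgeR adjusted p = 0.0126). The Ager call was lost when 30 ng/ml replicate 1 or 100 ng/ml replicate 1 was left out (edgeR adjusted p between 0.0814 and 0.085). Krt18 and Foxj1 (log2 changes -1.29 and -0.44) were not called, and the list summed to 5.38 to 7.996 CPM at 30 ng/ml and 2.36 to 3.002 CPM at 100 ng/ml. Mural markers had 2 of 9 higher, Kcnj8 (log2 0.87 ± 0.14, edgeR adjusted p = 0.00536) and Abcc9 (log2 0.95 ± 0.18, edgeR adjusted p = 0.00978), and 1 lower, Des. The Abcc9 call was lost when 100 ng/ml replicate 1 was left out (edgeR adjusted p = 0.0576). Notch3 (log2 change 0.01) was not called. The part of these marker differences in the results on matrix, adhesion and cytokine genes was not tested. Gpm6a, Upk1b, Krt19, Csf1r, Itgam and Abcc9 were named after their values were seen.

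**Figure D5:**
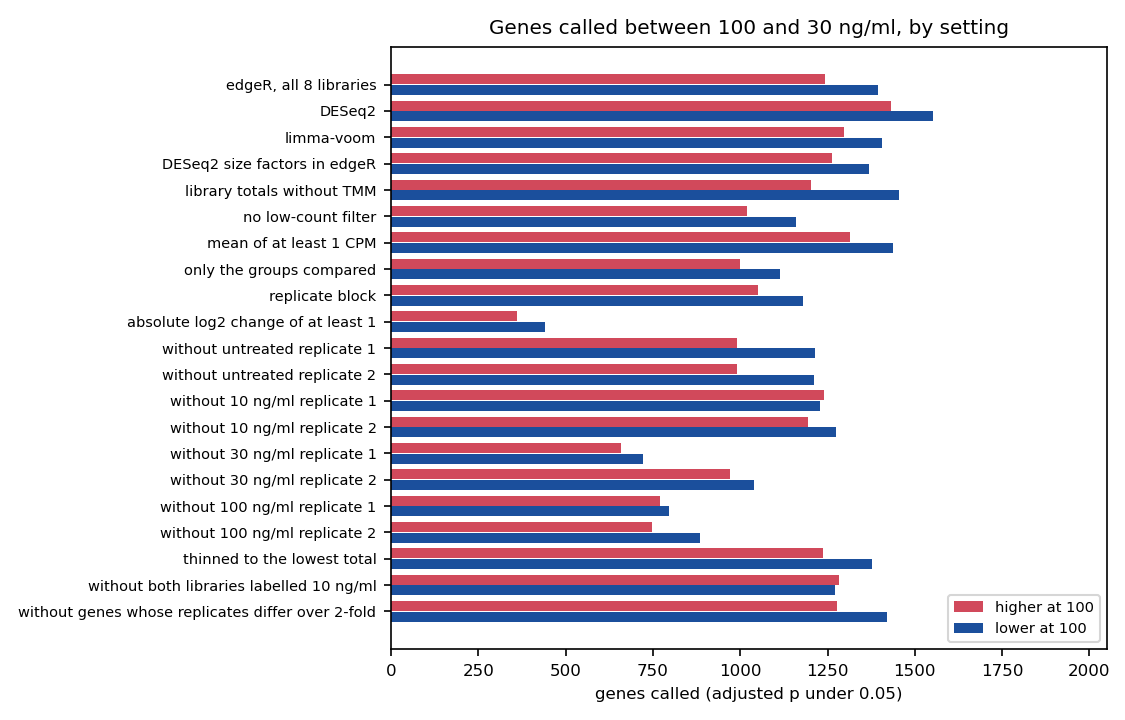
Number of genes called higher (red) and lower (blue) between 100 and 30 ng/ml under the reported fit (top, 1242 and 1395) and each alternative; bars start at 0. The shortest bars are those with a fold threshold of 2 (361 and 441) and those without 30 ng/ml replicate 1 (659 and 721).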

How the data were processed

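The authors deposited 1 table of raw counts per gene for the 8 libraries. Per the submitters' processing notes, STAR, StringTie and mm10 were used; versions, the counting program and strandedness are not stated there (not given in the sources used here), so reads of overlapping or antisense genes cannot be told apart. Rows without a symbol (0.168 to 0.178% of counts) stayed out of library sizes and gene tests, and CPM refer to the summed counts of the genes tested times the TMM factor, 26 symbols are turned into dates, and 80 symbols stand on 160 rows. Members and lists were chosen with earlier results of these data known.

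Counts were filtered with filterByExpr, scaled with TMM and tested with edgeR 4.0.16 (R 4.3.3; quasi-likelihood F test, all 8 libraries in 1 fit with a mean per group, 4 residual and 3.77 prior degrees of freedom), with Benjamini-Hochberg adjustment at 0.05. The SE is the log2 change divided by the root of F. Alternatives were DESeq2 1.42.0, limma-voom 3.58.1, other scalings, filters and sample sets, the replicate block, and leaving out each library; thinning to the lowest total, leaving out both 10 ng/ml libraries, and leaving out genes whose replicates differ over 2-fold were chosen after seeing the data.

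Genes were named by rule: the 15 largest called changes each way of at least 5 CPM without overlap between the groups, the 5 most abundant called genes each way, the ligand and receptor, the 4 members of smallest p and the called members against the majority of each of 23 lists, and the 3 highest markers of each marker list; exceptions are marked where they occur, and some genes the rule names are not reported here. A total of 37345575 to 50896445 counts puts the limit of 3 counts at 0.0599 to 0.0801 CPM; limits and counting intervals cover counting error only. In simulated counts for this comparison (16913 genes), 10.8% of 74 genes changed 1.5-fold, 45.6% of 68 changed 2-fold and 66% of 53 changed 4-fold were recovered, with 8 false calls of 82. Far fewer genes were changed there than the 2637 called in the data, so these shares do not measure recovery in the data. Gene overlaps are from GENCODE M21 (mm10), which matched 175 of 177 named genes and 96.8% of tested genes; promoters are from RefSeq (GRCm38.p6), with entries for 11452 tested genes. Libraries of a group were not duplicates (chi-square per degree of freedom 24.5 to 29.8).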

Additional observations from a re-analysis of the deposited data

Results flagged for a closer look

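Rows of the table without a gene symbol were left out of the gene tests. When they were tested the same way, 7 of 341 such rows with enough counts were called between 100 and 30 ng/ml by edgeR, 2 higher and 5 lower (2.05%, against 15.2% of the genes with a symbol). Their share called was below that of the genes with a symbol. These rows were used in no other comparison, and what they encode was not examined.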

How the results depend on the processing

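Between 100 and 30 ng/ml, 2637 genes were called; other tools, scalings, filters and sample sets gave 2115 to 2983, a fold threshold of 2 gave 802, and leaving out single libraries gave 1380 to 2468, lowest without 30 ng/ml replicate 1. Between 30 ng/ml and untreated cells, 4041 genes were called, 1441 with the fold threshold, and 2540 to 3831 without single libraries. Between 100 ng/ml and untreated cells, 194 were called, 598 with DESeq2, 89 with the fold threshold, and 91 to 237 without single libraries; of those called, 72.7% were higher in the main fit, 52.6% with limma-voom and 55% with only the 2 groups fitted. Of 164 named called genes, 135 kept their call whichever library was left out and 29 lost it at least once; no named called gene changed direction under any alternative run. The replicate block called 2231, 3578 and 136 genes in the 3 comparisons, and the call of Tnfsf12 was among 8 named calls lost with it. Deviations of same-numbered libraries from their group means correlated at -0.0503 to 0.0228, so no shared deviation was seen. Whether the numbers pair the libraries is not stated by the labels, and a correlation over all tested genes cannot settle it. Scaling moved the median log2 change by at most 0.0098. At 2 libraries a group and these depths, simulated 1.5-fold changes were recovered in 10.8% of genes. Far fewer genes were changed in that simulation than were called here, so this share does not measure recovery in the data. An uncalled gene may differ by 1.5-fold only where the interval of its log2 change reaches that far. For 6077 of all genes tested (35%), called or not, the interval lay within ±0.5.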

Other observations

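In a few genes the libraries at 100 ng/ml stood outside the range of all other groups instead of between the untreated libraries and those at 30 ng/ml; the 3 given here were chosen after their values were seen. Il6st encodes gp130, the signalling subunit shared by the receptors of IL-6, LIF and related cytokines. It was at 688 and 651 CPM untreated, 539 and 516 CPM at 10 ng/ml, 591 and 599 CPM at 30 ng/ml and 1106 and 1172 CPM at 100 ng/ml. Its log2 change was 0.94 ± 0.05 against 30 ng/ml (edgeR adjusted p = 0.000114) and 0.77 ± 0.05 against untreated cells (edgeR adjusted p = 0.00115), 2 comparisons that share the libraries at 100 ng/ml. Plpp5, a lipid phosphatase, was at 21.4 and 20.1 CPM untreated, 20.3 and 17.6 CPM at 10 ng/ml, 17.5 and 22.5 CPM at 30 ng/ml and 43.7 and 38.7 CPM at 100 ng/ml, a log2 change of 1.04 ± 0.14 against 30 ng/ml (edgeR adjusted p = 0.00236). Shisa5 was lower at 100 ng/ml than in any other group, at 136 and 115 CPM against 214 and 211 CPM at 30 ng/ml, 231 and 195 CPM at 10 ng/ml and 247 and 239.6 CPM untreated (log2 -0.76 ± 0.10, edgeR adjusted p = 0.00232). No exon of another annotated gene lies in these 3 genes.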
